A study of Mus musculus with 10 samples.

Results

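The genes described here are 42 that build the peroxisome or work in it, measured in mouse liver with and without the nuclear orphan receptor TAK1, also called TR4. The 42 were taken by symbol from the array's gene names, older symbols included, as 13 peroxins, 23 matrix enzymes and 6 membrane proteins. Together they had 64 probes on the array, of which 61 passed a filter on dim signal, which asked for a signal well above background in at least 4 of the 5 arrays in one group or the other. Those 61 probes covered 41 of the 42 genes, out of 15809 genes tested in all. The remaining gene, Dao, which encodes D-amino acid oxidase and is listed as Dao1, was not well above background on any array.

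Total RNA came from livers of 1-year-old mice of the strain C57BL/6, 5 samples from wild type and 5 from mice lacking TAK1/TR4, whose gene is Nr2c2. Each sample was labelled with Cy3 and hybridised to an Agilent array of its own. The labels give the same strain, age and tissue for both groups, and name no sex, no diet and no tissue restriction of the deletion. Whether the 10 samples came from 10 different mice is not stated, and the p-values therefore reflect the spread between these samples, which may be technical. Arrays are called WT1 to WT5 and KO1 to KO5 after the replicate number in the labels.

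Peroxisomes are single-membrane organelles that shorten very long, branched and dicarboxylic fatty acids by beta-oxidation, make ether lipid precursors and bile acids, and break down the hydrogen peroxide their oxidases release. Peroxins insert the membrane proteins, import folded matrix enzymes from the cytosol through the receptors PEX5 and PEX7, and divide the organelle. In rodent liver many of these genes are known targets of the fatty acid receptor PPARA, which binds direct repeats of the hexamer AGGTCA with its partner RXR, a kind of site that TR4 also binds.

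The probe letters matter most for the paired genes Acaa1a and Acaa1b, near-identical peroxisomal thiolases whose probes gave different sizes of change, and for Pex11a and Pex11g. Probe coordinates are those of the files (mm7), and without a genome of that build the probes were not placed in exons or untranslated regions. An Acaa1a probe that crosses an exon junction is shown whole, and the first 30 bases are shown of the others, 5′ to 3′ as printed on the array, all in lower case since no base is singled out.
Acaa1a upstream probe, chr9:119026729-119027949, plus strand: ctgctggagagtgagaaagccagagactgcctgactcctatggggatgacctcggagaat
Acaa1a end probe, chr9:119030443-119030499, plus strand: ggttgcaaagccatttgtacctttgaggga
Acaa1b probe, chr9:118828412-118828471, minus strand: tctgcgtgggacactcagcagtggaggagt
Pex11a probe, chr7:75606703-75606762, minus strand: tttggctggtctcctcacggtagtgtatcc
Pex11g probe with the gene, chr8:3373032-3373091, minus strand: agagacacatgcctcaggtcgggcttcggc
Pex11g probe on the other strand, chr8:3371978-3372037, plus strand: ttaggtggggaacagataccaggactccta

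The data have several features that bear on every value below. Slide 1 carried WT1 to WT4, slide 2 carried WT5 with KO1, KO2 and KO3, and slides 3 and 4 carried KO5 and KO4, so that slide and genotype overlap only on slide 2. KO4 was scanned on a different day from all other arrays. The 75th percentile of signal ran from 950 to 1344 over the arrays. Knockout arrays correlated with each other, across genes, at 0.965 to 0.988, against 0.988 to 0.994 for wild-type arrays, and KO2 took the smallest weight, 0.261, when arrays were weighted by their spread. The 2 probes that bear the name Nr2c2 were bright enough to be read everywhere and gave differences of 0.44 and 0.36 on the log2 scale, higher in the knockout. A minus-strand probe for a cDNA at the same locus (chr6:92237812-92237871) was detected in 5 wild-type samples and 0 knockout samples. It was 5.41-fold lower in the knockout with undetected signal raised to the lowest seen above background, which is not a strict lower bound. Where the deletion lies relative to these probes was not given in the sources used here.

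Where peroxisomal genes changed, they were lower in the knockout. Of the 41 tested, 9 fell and 0 rose at an adjusted p under 0.05 (limma, Benjamini-Hochberg over all genes), against 3.48% of all genes lower and 2.44% higher. With slide as a block, 0 of the 41 passed, where only 22 of all genes were lower and 13 higher. Slide and genotype overlap only on slide 2. At an unadjusted p under 0.05 without that block, 20 were lower and 0 higher, against 12.1% of all genes lower and 11.6% higher. Hao2 and Abcd2 entered the test through their wild-type signal alone, and of the 39 genes measured on at least 4 arrays of each group 8 fell. The difference, knockout minus wild type on the log2 scale, was negative for 36 of the 41, against 48.1% of all genes, and the median was -0.28 against 0.01 for all genes. With arrays left unscaled, all genes had a median of 0.12 and the peroxisomal genes one of -0.17, with 33 negative, and over all genes the split was 156 lower and 314 higher against 550 and 385. For 14 genes, Hao2 among them, the highest knockout array was still under the lowest wild-type array, where 5.43% of all genes did so. For 0 genes was the lowest knockout array over the highest wild-type array, against 4.19%. In bulk liver, fewer cells of a type and less RNA per cell cannot be told apart.

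**Figure D1:**
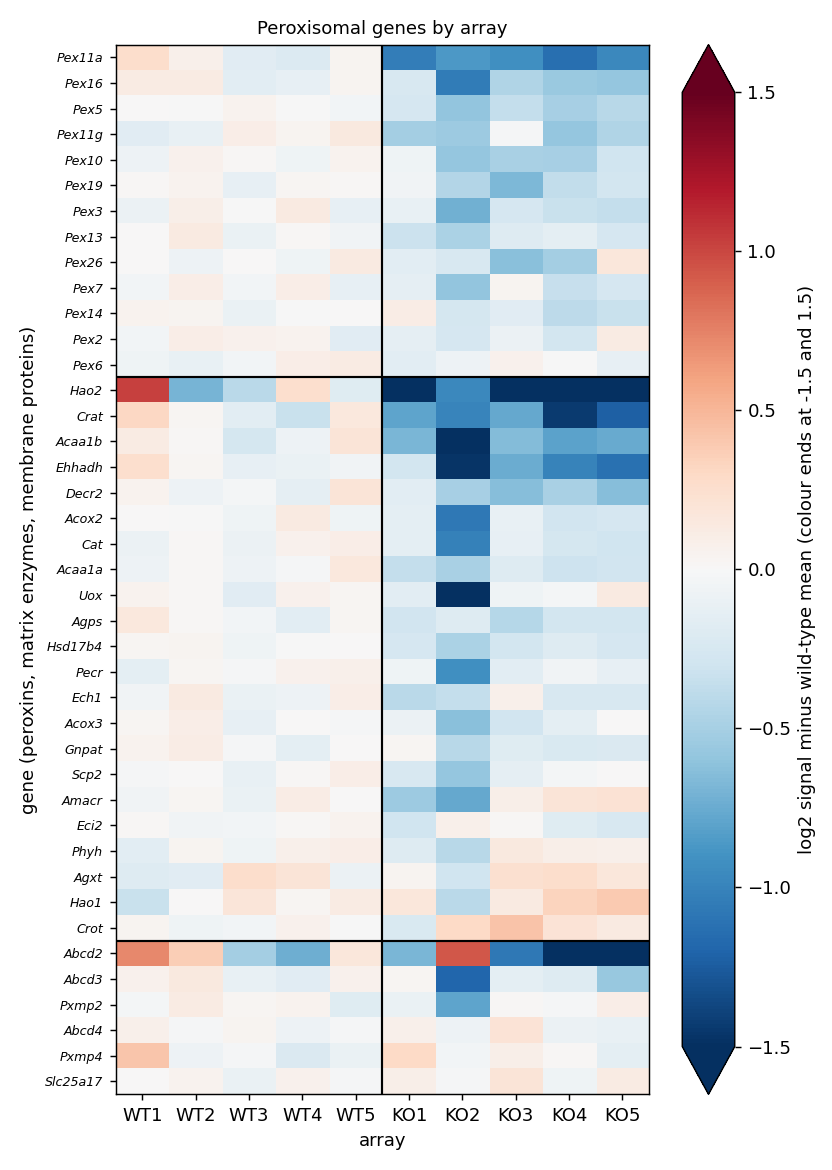
Log2 signal minus the gene's wild-type mean (colour, ending at -1.5 and 1.5) for each tested peroxisomal gene (rows, in blocks of peroxins, matrix enzymes and membrane proteins) on each array (columns). The blue columns to the right of the vertical line are the 5 knockout arrays, and KO2 is the lowest knockout array for 23 of the 41 genes.

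Among the 13 peroxins 3 fell, Pex11a, Pex5 and Pex16, and none rose in the same test, against 3.48% and 2.44% of all genes. At an unadjusted p under 0.05 in limma, 9 were lower and 0 higher (12.1% and 11.6% of all genes). All 13 had a negative difference, against 48.1% of all genes. The differences ran from -0.98 to -0.06 with a median of -0.36. Pex6 turned to 0.05 without scaling and Pex2 to 0.02 within slide 2. In 4 of them, Pex11a, Pex5, Pex16 and Pex13, no knockout array reached the lowest wild-type array, against 5.43% of all genes. The 3 that fell act at different steps: division, matrix import and membrane assembly.

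Pex11a encodes a membrane protein that elongates peroxisomes before they divide and is a known PPARA target. On a scale of log2 signal minus the array's 75th percentile, it read 6.73, 6.54, 6.30, 6.27 and 6.51 on WT1 to WT5, and 5.43, 5.61, 5.56, 5.34 and 5.50 on KO1 to KO5. The 2 groups stood well apart, and KO2 was the highest knockout array here, not the lowest. The mean fell from 6.47 ± 0.19 to 5.49 ± 0.11 (SD, n = 5 each), to 50.6% of wild type. The difference was -0.98 ± 0.10 (SE) with an adjusted p of 0.001 (limma). The probe is spotted 10 times on each array, and the SD over those spots was 0.02 to 0.06.

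Pex5 encodes the import receptor for enzymes that carry the C-terminal targeting signal (probe at chr6:124379403-124379462, minus strand). It read 3.35, 3.33, 3.38, 3.32 and 3.30 on the wild-type arrays and 3.09, 2.74, 2.98, 2.83 and 2.92 on the knockout arrays. The wild-type values lay close together and the knockout values were all lower and more scattered. The difference was -0.42 ± 0.07 with an adjusted p of 0.014 (limma). A second, dimmer Pex5 probe (chr6:124382454-124382513) differed by -0.13 ± 0.13 and did not pass the test, and with both probes averaged Pex5 no longer passed (adjusted p = 0.096, limma).

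Pex16 encodes a membrane peroxin that helps to place other membrane proteins (probe at chr2:92229976-92230035, plus strand). Its values were 4.82, 4.81, 4.53, 4.57 and 4.72 in wild type and 4.45, 3.64, 4.23, 4.13 and 4.11 in the knockout. KO2 was the lowest array, and the other 4 knockout arrays also lay below wild type. The difference was -0.58 ± 0.14 with an adjusted p of 0.040 (limma), and -0.46 without KO2. Its second probe fell by 0.64 ± 0.14, and was also called in the fit over probes, where 2.98% of all probes were lower.

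PEX3 and PEX19 work with PEX16, PEX19 as the carrier of membrane proteins and PEX3 as its dock. Pex3 differed by -0.36 ± 0.11 (adjusted p = 0.093) and Pex19 by -0.36 ± 0.11 (adjusted p = 0.077, both limma), so neither passed. In each of them 4 of 5 knockout arrays were under the wild-type range.

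The docking and import machinery gave smaller differences than Pex11a. Pex13, part of the docking complex, read 4.14, 4.27, 4.03, 4.14 and 4.08 in wild type and 3.81, 3.66, 3.94, 3.98 and 3.88 in the knockout. The groups did not overlap, and the difference of -0.28 ± 0.08 missed the threshold (adjusted p = 0.073, limma). Pex14, its docking partner, differed by -0.21 ± 0.10 and Pex7, the receptor for the N-terminal targeting signal, by -0.26 ± 0.11.

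Pex10 and Pex2 encode ring-finger ubiquitin ligases that recycle the receptor. Pex10 stood just outside the threshold at -0.39 ± 0.10 (adjusted p = 0.052, limma). Pex2 differed by -0.12 ± 0.09. The probe that the files name Pex2 belongs by its accession to Pex5l, a neuronal relative of Pex5, and differed by 0.16 ± 0.16. It was not counted, and Pex2 was read from the probe listed under the older symbol Pxmp3.

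PEX6 is an ATPase that pulls the receptor back out of the membrane, and PEX26 anchors it there. Pex6 differed by -0.06 ± 0.07 and Pex26 by -0.27 ± 0.14. Pex26 was lowest on KO3 and, on KO5, as high as 1.46, above every wild-type array.

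Pex11g is a second PEX11 gene of liver. Its brightest probe differed by -0.42 ± 0.12 (adjusted p = 0.069, limma), with 4 of 5 knockout arrays under the wild-type range and KO3, at 5.08, inside it. The other minus-strand probes gave -0.44 and -0.31. The plus-strand probe printed above, which lies on the strand opposite to the other 3, gave 0.02 ± 0.12.

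**Figure D2:**
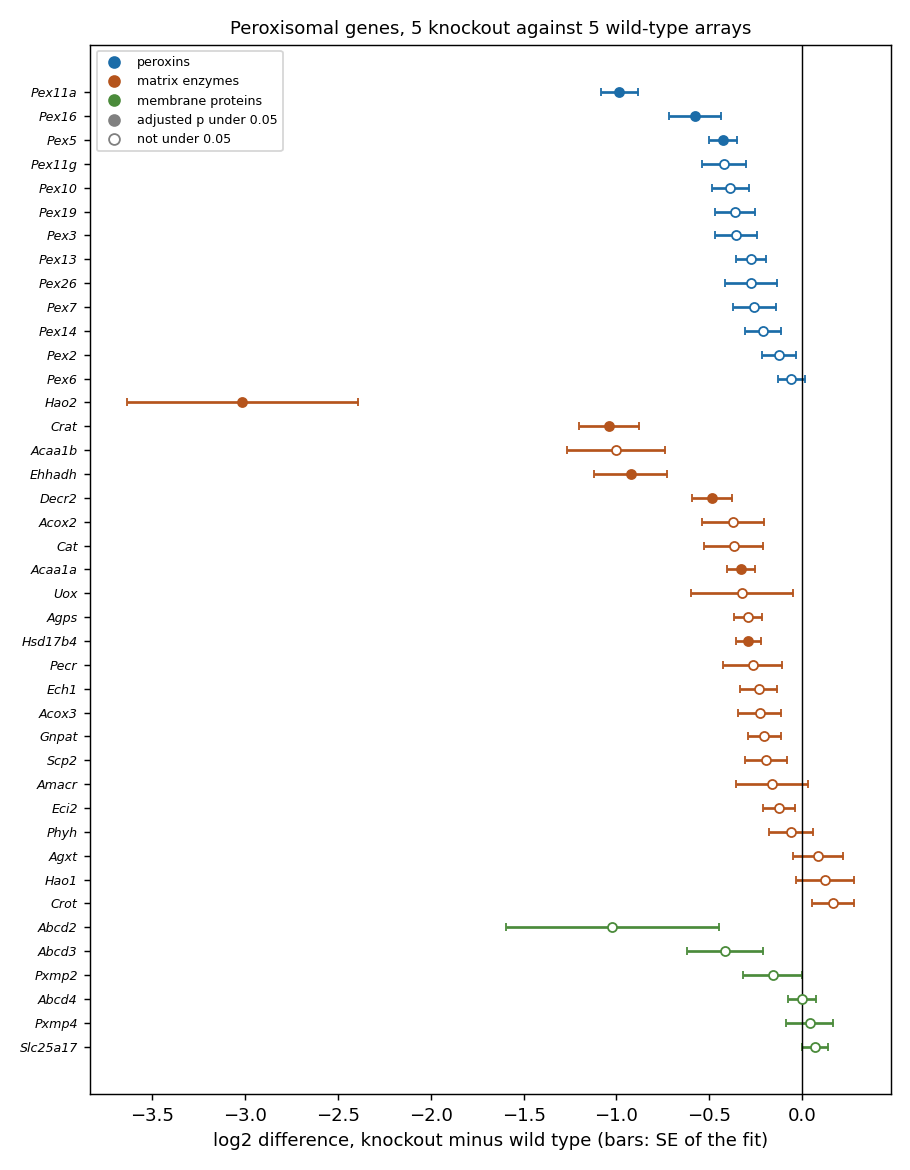
Log2 difference, knockout minus wild type, with the SE of the fit (bars) for the 41 tested genes, coloured by class; filled points have an adjusted p under 0.05. The 13 peroxins all lie left of 0, as do 19 of 22 matrix enzymes, while the 6 membrane proteins hold no filled point, and Hao2 rests on knockout signal mostly at background and has no exact size.

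Among the 22 matrix enzymes tested, 6 fell (Crat, Hao2, Ehhadh, Decr2, Acaa1a and Hsd17b4) and 0 rose, against 3.48% and 2.44% of all genes. At an unadjusted p under 0.05 in limma, 11 were lower and 0 higher (12.1% and 11.6% of all genes). Without Hao2, which was measured well in wild type only, 5 of 21 fell. Negative differences were found for 19, and the median was -0.28. In 10 genes the groups did not overlap. By role, 3 of 8 enzymes of the beta-oxidation spiral fell, and 1 of 5 auxiliary enzymes for unsaturated and branched chains. The count was 1 of 2 for carnitine acyltransferases and 0 of 2 for ether lipid enzymes. Of 5 tested oxidases, catalase and glyoxylate enzymes only Hao2 fell, which entered the test through its wild-type signal alone.

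The spiral starts with acyl-CoA oxidases. Acox2, which oxidises bile acid intermediates and branched chains, read 4.97, 4.97, 4.90, 5.11 and 4.91 in wild type and 4.83, 3.91, 4.86, 4.69 and 4.72 in the knockout. All knockout values were lower, KO2 by far the most. The difference was -0.37 ± 0.17 (adjusted p = 0.214, limma) and -0.20 without KO2. Acox3, another branched-chain oxidase, differed by -0.23 ± 0.12.

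The next steps are carried out by 2 bifunctional enzymes. Ehhadh, the L-bifunctional enzyme and a classical PPARA target (chr16:21411280-21411339, minus strand), read 5.51, 5.28, 5.12, 5.15 and 5.20 in wild type and 4.97, 3.77, 4.5, 4.25 and 4.13 in the knockout. Every knockout array was lower, from KO1 close below wild type to KO2 far below. The difference was -0.92 ± 0.19, a fall to 52.7% of wild type (adjusted p = 0.027, limma), and -0.79 without KO2. Hsd17b4, the D-bifunctional enzyme, read 7.04, 7.04, 6.94, 7.0 and 7.01 in wild type and 6.75, 6.53, 6.72, 6.82 and 6.75 in the knockout. The fall was small and the groups did not overlap. The difference was -0.29 ± 0.07 (adjusted p = 0.037, limma), to 81.8% of wild type.

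Thiolases close each turn of the spiral, and here the probes disagreed in size. The Acaa1b probe read 8.0, 7.89, 7.62, 7.80 and 8.07 in wild type and 7.19, 5.77, 7.23, 7.08 and 7.12 in the knockout. KO2 lay far below the other knockout arrays, which lay at 7.08 to 7.23, below wild type. The difference of -1.0 ± 0.26 missed the threshold (adjusted p = 0.054, limma), and passed it without KO2 at -0.72 (adjusted p = 0.005, limma).

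The chosen Acaa1a probe is the end probe, which read 7.38, 7.47, 7.37, 7.44 and 7.61 in wild type and 7.10, 6.96, 7.26, 7.14 and 7.16 in the knockout. The knockout values were all lower and KO2 did not stand apart. Its difference was -0.33 ± 0.08 (adjusted p = 0.035, limma). The upstream Acaa1a probe gave -1.04 ± 0.28, with an adjusted p of 0.060 over probes (limma), and like the Acaa1b probe it was far lowest on KO2. With all tested probes of Acaa1a averaged, its difference was -0.82 ± 0.21 (adjusted p = 0.048, limma), well beyond that of the end probe. Since the 2 genes are near-identical copies, the share of each in a probe's signal is uncertain, and no genome was used here to count mismatches.

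**Figure D3:**
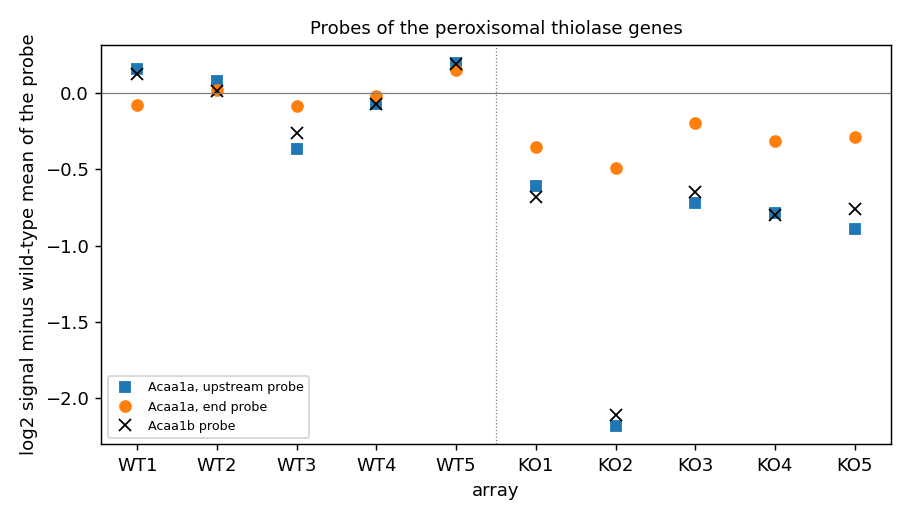
Log2 signal minus the probe's wild-type mean on each array for the upstream and end probes of Acaa1a and the Acaa1b probe. The upstream Acaa1a probe follows the Acaa1b probe on every array, with KO2 lowest, while the end probe, the one used for Acaa1a, changes by -0.33.

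The other enzymes of the spiral did not pass. Scp2, which encodes sterol carrier protein with a thiolase domain, differed by -0.19 ± 0.11, or -0.10 without KO2. Amacr, the racemase for branched chains and bile acid precursors, differed by -0.16 ± 0.19, or -0.01 without KO2, with KO1 and KO2 below and KO4 and KO5 above all wild-type arrays.

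Among auxiliary enzymes, Decr2 encodes the peroxisomal dienoyl-CoA reductase, which unsaturated chains need (chr17:24265055-24265114, minus strand). It read 4.26, 4.12, 4.17, 4.06 and 4.39 in wild type and 4.04, 3.70, 3.56, 3.72 and 3.56 in the knockout. KO1 lay just below the lowest wild-type array and the other 4 further down. The difference was -0.49 ± 0.11 (adjusted p = 0.029, limma), a fall to 71.4% of wild type, and it was -0.48 without KO2.

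The isomerases Eci2 and Ech1 differed by -0.12 ± 0.08 and -0.23 ± 0.10, and the enoyl-CoA reductase Pecr by -0.27 ± 0.16. Phyh, which starts the breakdown of phytanic acid, differed by -0.06 ± 0.12 and turned to 0.05 without scaling, to 0.0081 with quantile normalisation and to 0.03 without KO2. Pecr read 5.75 on KO2 and 6.52 to 6.62 on the other knockout arrays, which overlapped with wild type.

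Carnitine acyltransferases prepare shortened chains for export, and the pair did not move alike. Crat, carnitine acetyltransferase (chr2:30409475-30409534, minus strand), read 3.38, 3.09, 2.91, 2.73 and 3.23 in wild type and 2.28, 2.07, 2.31, 1.63 and 1.84 in the knockout. The groups were clearly apart, with KO4 and KO5 lowest. The mean fell from 3.07 ± 0.26 to 2.03 ± 0.29 (SD, n = 5 each), to 48.6% of wild type. The difference was -1.04 ± 0.16 (adjusted p = 0.008, limma). Crot, the octanoyltransferase, differed by 0.17 ± 0.11 and did not pass the test. The difference between the 2 genes was not tested.

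Gnpat and Agps encode the first enzymes of ether lipid synthesis. Agps read 0.46, 0.32, 0.26, 0.14 and 0.34 in wild type and 0.02, 0.11, -0.12, 0.03 and 0.03 in the knockout. The groups did not overlap, though KO2 came close to WT4. The difference of -0.29 ± 0.08 stood just outside the threshold (adjusted p = 0.053, limma), and a second, much dimmer probe gave 0.07 ± 0.13. Gnpat differed by -0.20 ± 0.09.

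Hao2, listed as Hao3, encodes a peroxisomal long-chain hydroxy acid oxidase and was dim (chr3:98670176-98670235, minus strand). It read -1.37, -3.10, -2.80, -2.15 and -2.58 in wild type, above background on all 5 arrays. In the knockout it read -4.93, -3.37, -5.33, -6.62 and -6.82, above background on 1 array. The values not above background have no order among themselves. With each knockout array raised to the lowest signal seen above background on it, Hao2 was 3.96-fold lower (adjusted p = 0.025, limma, on the measured values). That lowest signal is set by the dimmest probe above background, so 3.96 is not a strict lower bound. It passed the filter only through wild type, so a difference was built into its selection and its call supports nothing further.

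Catalase, encoded by Cat, removes the hydrogen peroxide of the oxidases. It read 6.77, 6.87, 6.77, 6.93 and 6.95 in wild type and 6.72, 5.84, 6.74, 6.59 and 6.56 in the knockout. All knockout arrays were lower, 4 of them slightly and KO2 strongly. The difference was -0.37 ± 0.16 (adjusted p = 0.198, limma) and -0.21 without KO2.

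Uox, urate oxidase, showed the same array apart without a general fall. It read 8.14, 8.10, 7.91, 8.14 and 8.10 in wild type and 7.92, 6.57, 8.02, 8.05 and 8.22 in the knockout. Apart from KO2 the groups overlapped, and the difference went from -0.32 ± 0.27 to -0.03 without KO2. Hao1, glycolate oxidase, and Agxt, which turns its product glyoxylate into glycine, differed by 0.12 ± 0.16 and 0.09 ± 0.14, or 0.25 and 0.18 without KO2. Both enzymes were lowest on KO2 among the knockout arrays, and Hao1 turned to -0.16 within slide 2.

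**Figure D4:**
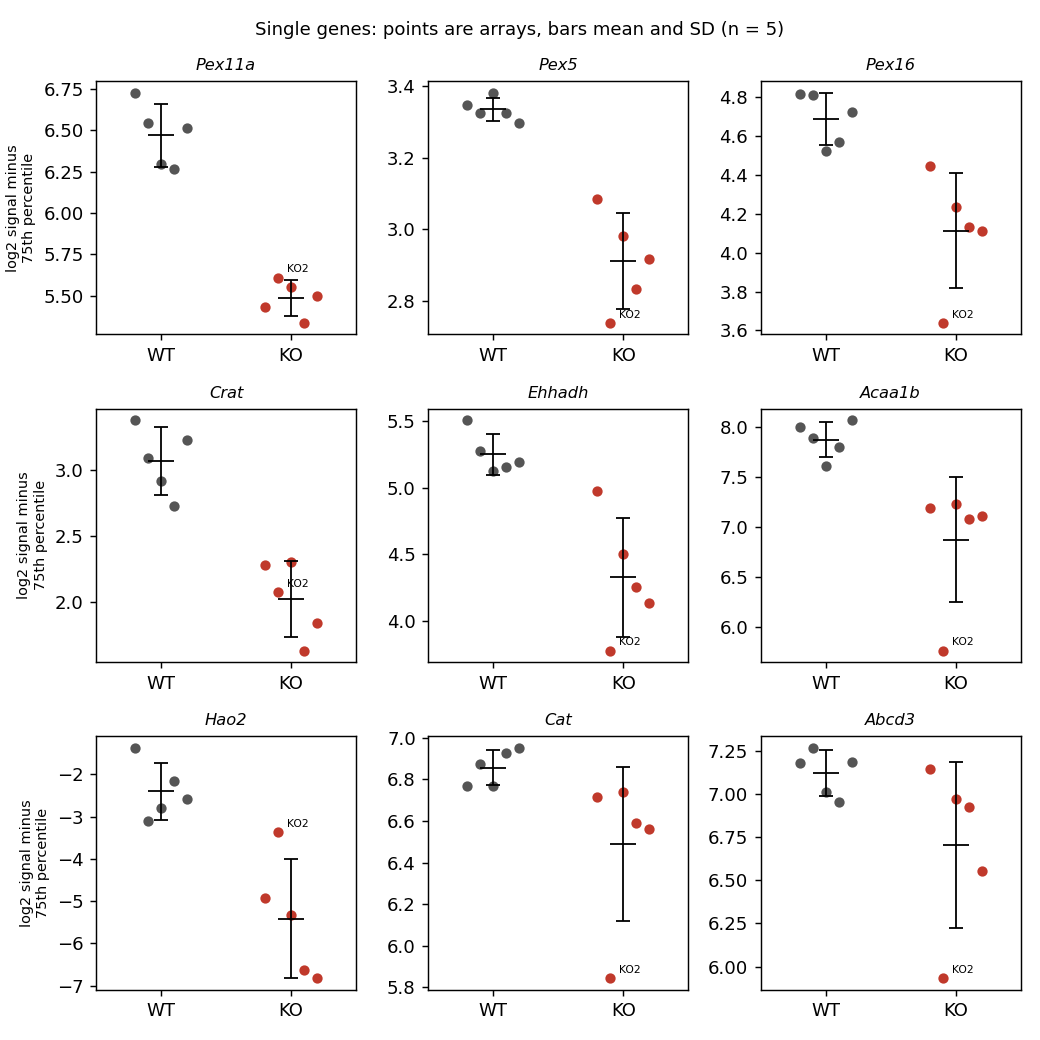
Log2 signal minus the array's 75th percentile for 9 genes, each with 5 wild-type and 5 knockout arrays (points) and the mean with SD (bars); axes differ between panels. Pex11a, Crat and Pex5 separate fully with KO2 among the other knockout arrays or at their edge, while in Cat and Acaa1b KO2 lies far below the rest.

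None of the 6 membrane proteins passed the test in limma, and 0 did so at an unadjusted p under 0.05 in either direction. Their median was -0.08, and it turned to 0.029 without scaling and to 0.0087 without KO2. Abcd3, the abundant half-transporter that imports bile acid precursors and dicarboxylic acids, read 7.18, 7.27, 7.01, 6.95 and 7.19 in wild type and 7.14, 5.93, 6.97, 6.92 and 6.55 in the knockout. The groups overlapped, and the difference of -0.42 ± 0.21 shrank to -0.22 without KO2. Its other probes gave -0.58 and -0.56.

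Abcd2, a transporter of very long chains, was dim. It read -1.65, -2.01, -2.89, -3.11 and -2.21 in wild type and -3.06, -1.44, -3.45, -4.06 and -4.96 in the knockout, above background on 3 knockout arrays. KO2 was the highest of all 10 arrays, the reverse of its place in Abcd3. The difference was -1.02 ± 0.58 (adjusted p = 0.314, limma).

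The remaining membrane proteins lay near 0. Abcd4, now mostly placed in lysosomes, differed by -0.00019 ± 0.08, the channel protein Pxmp2 by -0.16 ± 0.16, Pxmp4 by 0.04 ± 0.13 and the cofactor carrier Slc25a17 by 0.07 ± 0.07. Pxmp2 read 4.60 on KO2 against 5.30 to 5.49 on the other knockout arrays.

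The classes can be followed array by array as the median over genes of the distance from the wild-type mean. For peroxins this median ran from -0.04 to 0.07 on wild-type arrays and from -0.54 to -0.16 on knockout arrays. For matrix enzymes it ran from -0.08 to 0.05 and from -0.54 to -0.14. For membrane proteins the ranges overlapped, at -0.12 to 0.09 and -0.13 to 0.05. The medians of peroxins and matrix enzymes were lower on each knockout array than on any wild-type array, and lowest on KO2.

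**Figure D5:**
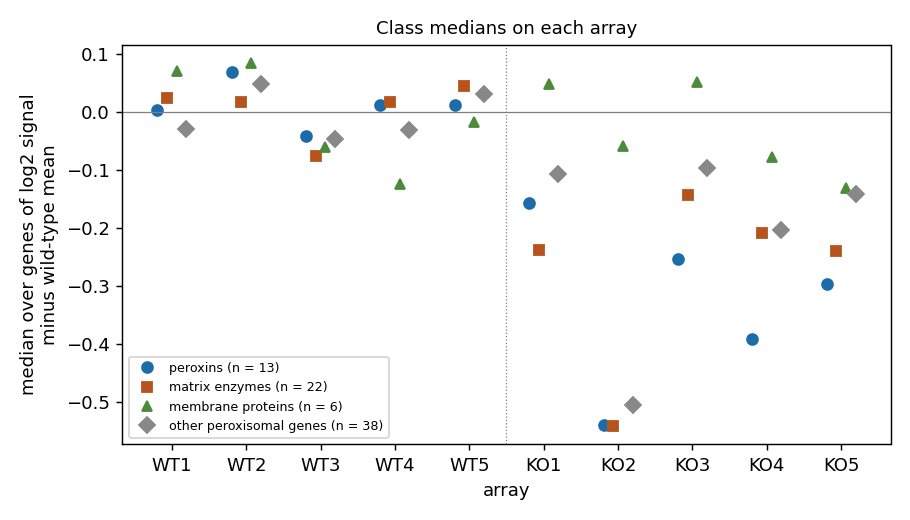
Median over the genes of a class of the log2 signal minus the wild-type mean, on each array, for peroxins, matrix enzymes, membrane proteins and the other peroxisomal genes. Peroxin medians on knockout arrays lie between -0.54 and -0.16, below all wild-type arrays, and membrane protein medians overlap.

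KO2 was the lowest knockout array for 6 of 13 peroxins, 15 of 22 matrix enzymes and 2 of 6 membrane proteins. How often it was lowest over all genes was not counted, so these counts may not be particular to peroxisomal genes. Without it, 11 of 41 genes fell and 34 were negative, with a median of -0.20. Over all 15809 genes, 614 fell and 458 rose without KO2, against 550 and 385 with it. Of all genes 7427 were then negative, and the median was 0.015. Leaving it out moved the difference of 14 genes by over 1.5 times, among them Acox3 to -0.13, Pecr to -0.10 and Pxmp2 to -0.00054. The median SD of a matrix enzyme over the knockout arrays was 0.25 with KO2 and 0.12 without it, against 0.10 over wild-type arrays. For peroxins these values were 0.21, 0.17 and 0.10. The single arrays that moved the count of genes that fell by over 1.5 times were WT1, WT2, WT5 and KO5, each leaving 3 when left out, and WT3, WT4 and KO4, each leaving 4. Pex11a, Pex5 and Crat remained called in all 10 such fits, with a highest adjusted p of 0.007, 0.043 and 0.028 (limma).

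Within slide 2, where WT5 can be set against KO1 to KO3, Pex11a differed by -0.98 and Crat by -1.01. Ehhadh differed by -0.78, Decr2 by -0.63, Pex16 by -0.62, Acaa1a by -0.50, Pex5 by -0.36 and Hsd17b4 by -0.34. These are values against a single wild-type array, whose own spread is unknown. All 9 genes that fell kept their direction on this slide. That was fixed in advance, since in each of them every knockout array lay below every wild-type array, so it adds no support. With slide as a block, which rests on the same 4 arrays for the difference, 0 of 41 genes passed. The lowest adjusted p among them was 0.179 for Pex11a (limma). Of all genes, only 22 were lower and 13 higher with that block. At an unadjusted p under 0.05 in limma, 7 of the 41 were lower and 0 higher, against 5.21% and 4.69% of all genes. In a fit to slide 2 alone, which takes the lone wild-type array to vary like the knockout arrays, 0 passed. At the unadjusted level 2 of 41 were lower and 0 higher there, against 2.46% and 1.98% of all genes, a share near the background. For the rest of the arrays, slide and genotype cannot be told apart.

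Genes with several probes gave a check inside the array. Of 14 genes with more than 1 tested probe, 11 had all probes on one side of 0, and the exceptions were Pex11g, Agps and Slc25a17. Over all 61 probes, 51 differences were negative and 10 were called lower, beside the 2.98% of all probes.

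Other peroxisomal genes outside the 42 gave a similar picture in the list of 41, with 38 of them tested. Of these, 6 fell and 0 rose in the fit without a slide block, against 3.48% and 2.44% of all genes. The difference was negative for 29, against 48.1% of all genes, and the median was -0.19, or -0.11 without KO2. Among those that fell were Gstk1, a glutathione transferase, at -0.54, Ddo, D-aspartate oxidase, at -0.62, Tysnd1, the protease that trims imported enzymes, at -0.41, and Acad11, an acyl-CoA dehydrogenase, at -0.43. Of the 10 fits that left out 1 array, the call was lost in 1 for Gstk1, 6 for Ddo and for Tysnd1, and 7 for Acad11.

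A list of 26 genes held PPARA and known targets of it outside the peroxisome. Of these 24 were tested, and 7 fell and 0 rose, against 3.48% and 2.44% of all genes. The median was -0.24. Ppara itself read 4.05, 4.25, 4.34, 4.44 and 4.39 in wild type and 4.13, 3.22, 3.66, 3.79 and 3.68 in the knockout. KO1 lay within the wild-type range and the other 4 below it. The difference was -0.60 ± 0.15 (adjusted p = 0.048, limma), and the call was lost in 8 of the 10 fits that left out 1 array. The others that fell were the mitochondrial carnitine carrier Slc25a20 at -0.46, the thioesterase Acot2 at -1.19, the dehydrogenases Acadm and Etfdh at -0.41 and -0.42, the pantetheinase Vnn1 at -1.76 and the omega-hydroxylase Cyp4a10 at -0.57. In the same 10 fits the call was lost in 8 for Etfdh, Vnn1 and Cyp4a10, in 5 for Acadm, in 1 for Acot2 and in 0 for Slc25a20.

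Upstream sequence was searched for 2 copies of AGGTCA in direct repeat with 1 base between them, allowing 2 mismatches over the 12 letters, on both strands, in the 250 bases before each start in RefSeq (GRCm38). The pattern stood in 3.24% of 32851 promoters. Of 34 peroxisomal genes with a promoter in that set, only Cat held it, which did not pass the test, and it stood in 0 of 7 that fell. In the Cat sequence the capitals mark the match, 204 to 192 bases before the start.
Cat, chr2:103485321-103485381, minus strand: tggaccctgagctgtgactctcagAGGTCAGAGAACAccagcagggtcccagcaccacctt
A match is a description of letters only, and sites farther from the start were not searched.

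Markers of liver cell types were read on the same arrays as summed linear signal, in multiples of each array's 75th percentile. For 10 hepatocyte markers with a probe, of 12 listed, the sum was 1646 to 1916 on wild-type and 1604 to 2000 on knockout arrays, and 0 of them changed (limma). For 12 endothelial markers it was 24 to 34.0 in wild type and 38.0 to 58.6 in the knockout, and 3 rose. For 12 macrophage markers it was 45.5 to 103.8 and 46.7 to 124.7, and 2 rose. For 12 stellate, 7 cholangiocyte and 9 leukocyte markers 0 changed, with sums of 89.0 to 109.2, 5.85 to 9.67 and 2.26 to 6.16 in wild type and 100.2 to 123.7, 7.80 to 21.6 and 1.81 to 7.84 in the knockout. For 6 adipocyte markers it was 3.15 to 28.3 in wild type and 0.359 to 0.959 in the knockout. Only 2 of them were tested, with differences of -5.72 and -0.40, and 1 was lower. Adipoq and Lep were not above background on any array. The sum therefore does not show that adipocyte markers fell as a group. The part of the endothelial, macrophage and adipocyte markers in the lower peroxisomal signal was not tested.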

How the data were processed

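Liver RNA of 5 wild-type and 5 knockout samples was measured on 1-colour Agilent arrays. Images were read by the authors with Feature Extraction from Agilent (9.5.1.1 per the file headers, 9.5 per the submitters' processing notes). The program subtracted background from each deposited intensity, as the headers record, and the series table the authors deposited holds identical intensities.

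Here log2 of the processed signal was taken, without a pseudocount, and centred on the 75th percentile of the non-control spots of that array. Outlier spots were set to missing and spots of a probe averaged. The filter on dim signal required 4 of the 5 arrays in a group to exceed background and kept 23266 of 41174 probes. Symbols were updated through RefSeq (GRCm38.p6, names only), by accession for 22951 probes, current symbol for 6659 and older symbol for 3109, and 8455 stayed under their original name. The brightest probe stood for its gene. The 2 groups were compared in limma 3.58.1 (R 4.3.3; lmFit, then eBayes), two-sided, with Benjamini-Hochberg adjustment over 15809 genes, and the script was tested on simulated data. The terms fell, rose and called mean an adjusted p under 0.05.

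Precision is limited by the number of arrays. On each of them 51.0% to 62.4% of probes were above background. Members, gene lists, the rule for named genes and the 22 alternative settings were chosen with earlier results of these data known. Named in full were all members that fell, the lowest p of each role, dim members and 9 genes fixed by name. Of the other lists, changed genes were named. A few genes and 1 probe that these rules take are not reported here.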

Additional observations from a re-analysis of the deposited data

Results flagged for a closer look

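Within each group of 5 arrays, the gap between an extreme array and its nearest neighbour was divided by the group's range, and a share above 0.71 was taken as a sample far from the others. Of 82 groups tested over 41 genes, 9 passed, where chance gives about 1 in 20 for a single group. The groups share the same arrays and are not independent, and the rate over all genes was not counted. KO2 was the low array in 6 of the 9. The shares on KO2 were 0.895 for Acaa1b, 0.883 for Pecr, 0.822 for Uox, 0.817 for Acox2, 0.804 for Cat and 0.783 for Pxmp2. Of these 6 genes, 5 encode matrix enzymes and Pxmp2 a membrane channel. WT3 was the low wild-type array for Uox (0.834) and for Pex19 (0.75). KO3 was the high knockout array for Pex11g (0.765).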

How the results depend on the processing

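Over 22 other settings 6 of the 41 genes took the other sign at least once, Pex2, Pex6, Phyh, Hao1, Abcd4 and Pxmp4, none of which had passed the test. Pex11a and Crat remained called under 20, losing the call only with slide as a fixed block and within slide 2. Pex5 remained called under 16 and the other 6 genes that fell under 7 to 10. The cause of these changes was not tested.

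With no filter on dim probes, which tests more genes, 167 of all genes were lower and 80 higher, 2 peroxisomal genes were lower, 1 of them a peroxin and 1 a matrix enzyme. Without scaling between arrays 156 were lower and 314 higher, against 550 and 385, and 3, 1 and 2 of the peroxisomal genes, peroxins and matrix enzymes were lower. The medians of peroxisomal genes, peroxins and membrane proteins were then -0.17, -0.25 and 0.029. With slide as a fixed block 22 of all genes were lower and 13 higher, and 0 peroxisomal genes, peroxins or matrix enzymes. Within slide 2, 0 were lower and 2 higher, with 0 in the same classes. In both the median of matrix enzymes was -0.40. With slide as a random block (correlation -0.09) 807 of all genes were lower and 644 higher, and 16 peroxisomal genes, 8 of them peroxins, were lower. Without slide 4, 319 were lower and 225 higher, with 4 peroxisomal genes and 2 matrix enzymes. Slide 4 held KO4 alone, so this is the same fit as the one without KO4. The 22 settings, and the tallies of calls kept under them, count it under both names.

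Replicate numbers did not pair the samples, with correlations of deviations from -0.21 to 0.04 and no wild-type array closest to its own number. With the replicate block 106 of all genes were lower and 60 higher, and 2 peroxisomal genes, 1 peroxin and 1 matrix enzyme.

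Leaving out 1 array at a time gave 184 to 655 lower and 113 to 536 higher among all genes, 3 to 11 peroxisomal genes, 2 to 6 peroxins and 1 to 8 matrix enzymes lower. The median of peroxisomal genes ran from -0.31 to -0.20, and that of membrane proteins from -0.13 to 0.0087, the latter without KO2.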
